A study of Mus musculus with 4 samples.

Results

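The genes described here code for cytokines, chemokines and their receptors, the secreted signals and the surface proteins through which immune cells, glia and neurons instruct each other. They were chosen by name and not by level: every probe set whose only gene symbol began with Il and a digit, Ccl, Cxcl, Ccr or Cxcr and a digit, or Ifna, Ifnb or Ifng. This gave 94 of the 8252 genes measured, with 110 of the 10855 probe sets that carry 1 symbol (12488 in all). The tissue was hippocampal CA1, taken from young male mice of the C57BL/6J strain whose only treatment was handling. Each of 4 arrays holds RNA taken 1, 2, 4 or 6 hr after other mice, not analysed here, had their last shock. There is 1 array per time, and the labels used here do not say whether an array holds 1 animal or a pool. Where 4 values follow each other they are in the order 1, 2, 4 and 6 hr.

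Interleukins, interferons and chemokines are mostly made on demand. Resting brain tissue keeps many of their genes nearly silent, and injury, infection or strong stress can switch them on within hours through NF-kB, STAT and IRF transcription factors. Receptors are more often made all the time, and a few chemokines, Cxcl12 above all, serve in the healthy brain as guidance and maintenance signals rather than as alarms.

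Most of these genes were dim in unchallenged CA1. In all, 10 of 110 probe sets (9.09%) read above the median of their array on all 4 arrays, against 43.3% of the 10855 probe sets with 1 symbol. They were Il27ra, Cxcl14, Il18, Ccl22, Il17ra, Cxcl12, Ifnar1, Il10rb, Il6st and Ifnab. A further 82 (74.5%) were below the median on all 4 arrays, against 39.2% of all, and 18 (16.4%) crossed it. On all 4 arrays 23 (20.9%) lay under the floor of 54.6, the 25th percentile of all values, against 10.7% of all. The array medians were 204, 173, 204 and 198. A probe set's brightness depends on its probes as well as on its transcript, so positions against the median describe each probe set and give no order of transcript levels between genes. In tissue RNA, fewer cells that make a transcript and less of it per cell cannot be told apart.

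**Figure D1:**
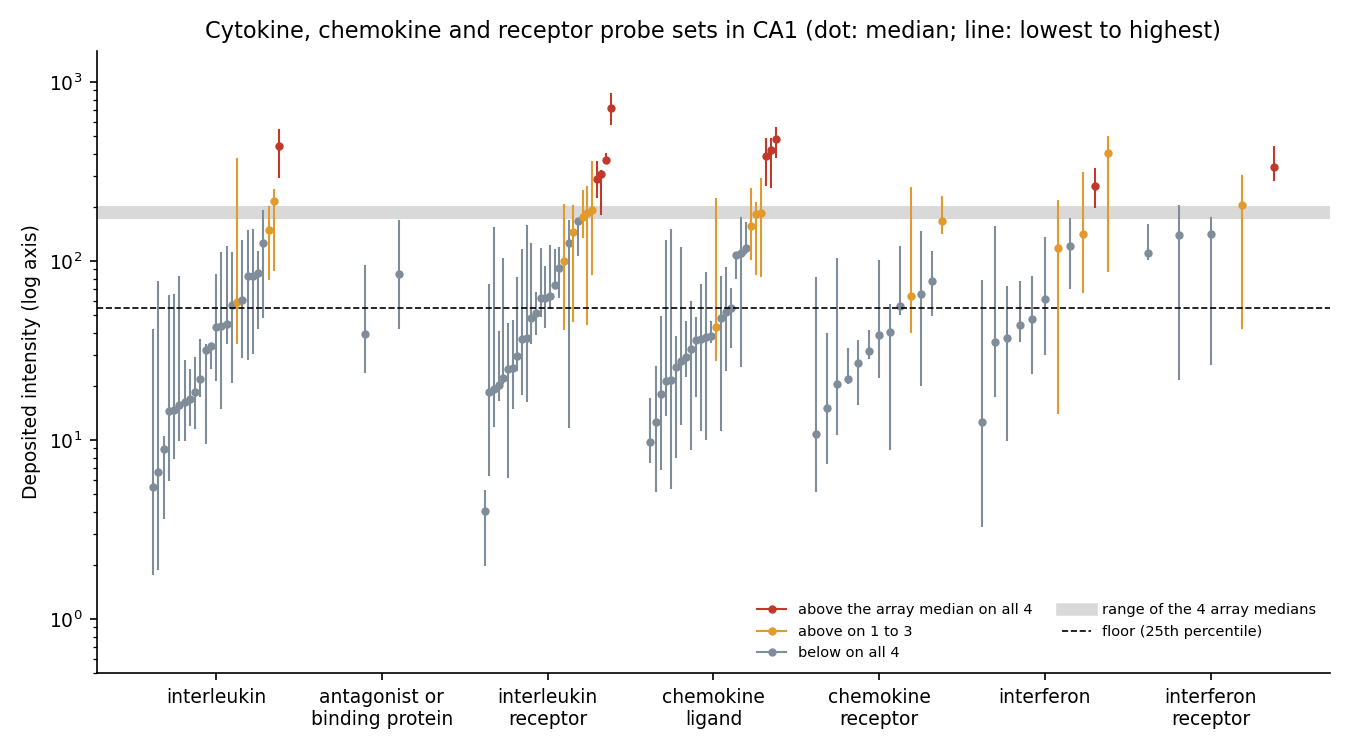
Deposited intensity (log axis) of the 110 probe sets, grouped by role, with the median of the 4 arrays as a dot and a line from the lowest to the highest array. The grey band spans the 4 array medians, 173 to 204, and the dashed line is the floor of 54.6; 10 probe sets stay above the median of every array and 82 stay below it.

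The median is a loose mark of expression. Of 106 probe sets for 77 genes typical of other tissues (testis, pancreas, skin, muscle, liver, kidney, lens and others), 13 (12.3%) also read above the array median on all 4 arrays and 71 (67.0%) below it. Tff1, a gut peptide, reached 609 to 1494 through a single probe set. The 90th percentile of that reference list was 379, 263, 338 and 288 at 1, 2, 4 and 6 hr. Only 2 of the 110 cytokine probe sets exceeded it on all 4 arrays, those for Il27ra and Cxcl14, against 32.8% of all probe sets with 1 symbol. Without the 1 hr array the count was 5, and without the 6 hr array 4. Lower marks were passed by more. The 19 probe sets for bacterial and yeast genes had highest values of 158, 76.6, 154 and 121 at 1, 2, 4 and 6 hr. On all 4 arrays 14 of the 110 lay above them, against 50.0% of all. These 14 were the 10 above the median and the probe sets for Il16 and Cxcr3 and a second one each for Il6st and Il17ra.

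**Figure D2:**
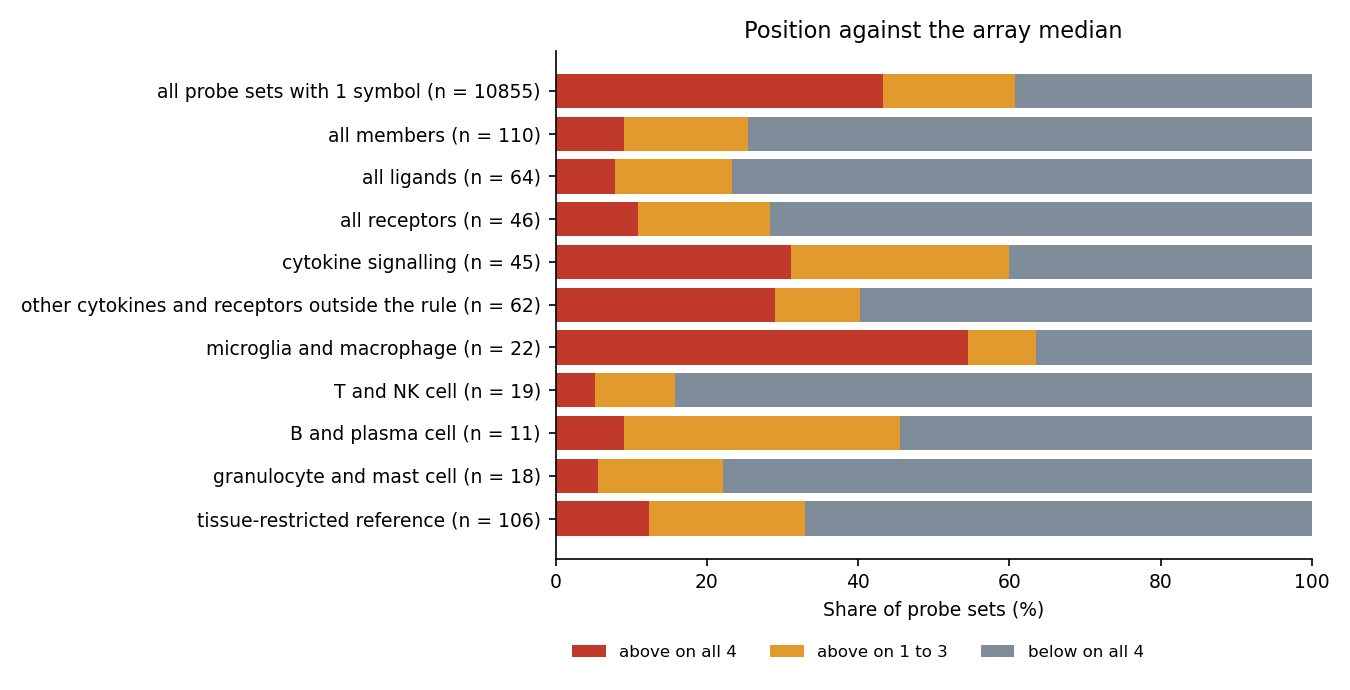
Share of probe sets (percent, bars to 100) above the median of their array on all 4 arrays, on 1 to 3, or on none, for the cytokine family, its ligands and receptors, and comparison lists, with the number of probe sets in each label. The family (9.09% above) lies near the tissue-restricted list (12.3%) and below all probe sets (43.3%).

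Among the interleukins, the secreted messengers of leukocytes, Il18 was the only gene above the median throughout. Its product, a member of the interleukin 1 family, is stored as a precursor that inflammasomes activate. Il18 read 296, 540, 425 and 455, a mean of 1.11 ± 0.45 log2 units above the array median (SD, n = 4, 1 array per time). The lowest of the 4 was the 1 hr array, and the other values did not reach down to it. Of the 25 interleukin probe sets for 20 genes, 21 were below the median on all 4 arrays and 8 lay under the floor on all 4. Those under the floor belonged to Il1b, Il2, Il6, Il11, Il12a, Il13 and, with 2 of its 5 probe sets, Il4. Il1b, an early mediator of inflammation, read 24.6, 12.1, 15.7 and 18.2 at 1, 2, 4 and 6 hr. Il6, which drives the acute phase response, read 9.6, 34.2, 33.5 and 30.4. Il1a, the other interleukin 1 agonist, was a little brighter on the first array, at 129, 29.1, 47.8 and 73.0.

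A few interleukins crossed the median. Il16, a chemoattractant for CD4+ cells with a neuronal form, read 199, 89.2, 238 and 251. It was near or above the median on each array but that of 2 hr. Il12b, the shared subunit of interleukins 12 and 23, read 370 at 1 hr and 35.0, 51.1 and 68.0 after that, so its single high value stood alone. Il9, a T cell cytokine, read 79.9, 105, 195 and 201. The natural inhibitors were dim as well. Il1rn, the interleukin 1 receptor antagonist, read 47.2, 24.1, 31.2 and 94.4, and Il18bp, the decoy that captures interleukin 18, read 83.1, 42.4, 86.4 and 168.

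Interleukin receptors held 4 of the 10 probe sets that stayed above the median. Il27ra, the specific chain of the interleukin 27 receptor, was the farthest above it, at 807, 583, 865 and 637. That is 3.21 to 4.24 times the median of the same array, 1.88 ± 0.19 log2 units above it (SD, n = 4). Il17ra, which binds interleukin 17A, was the steadiest through its brighter probe set, at 364, 373, 362 and 399 (0.95 ± 0.14 log2 units above the median). Il10rb, a chain shared by the receptors for interleukins 10 and 22 and for type III interferons, read 282, 229, 361 and 297. Il6st, the gp130 signal transducer of the interleukin 6 family, read 301, 184, 314 and 320. At 2 hr it was only 1.06 times the array median.

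Il6st is also the partner chain of Il27ra, and both were above the median throughout. Other partner chains and ligands were dimmer or crossed it. Il10ra, the ligand-binding chain for interleukin 10, lay under the floor on all 4 arrays (16.8 to 40.3), and both Il10 probe sets were below the median (6.0 to 112). Il17a read 120, 45.7, 43.9 and 35.0. Il6ra, which pairs with gp130, crossed the median at 169, 217, 84.7 and 361. Il18r1 and Il18rap, the chains of the interleukin 18 receptor, ranged from 43.2 to 93.2 and from 71.3 to 115. Il1r1, the signalling interleukin 1 receptor, read 122, 66.9, 54.9 and 61.2, and its co-receptor Il1rap lay under the floor throughout (6.2 to 44.8). Of all 28 interleukin receptor probe sets for 23 genes, 19 were below the median on all 4 arrays and 4 under the floor on all 4. Those 4 were for Il5ra, Il10ra, Il1rap and, with 1 of its 2 sets, Il12rb1 (15.1 to 46.5). Il5ra, the eosinophil growth factor receptor, was the dimmest of these at 5.2, 3.1, 5.0 and 2.0.

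Few chemokine ligands stayed above the median and most stayed below it. Of 26 probe sets for 22 genes, 3 were above the median on all 4 arrays, 4 crossed it and 19 stayed below. Under the floor on all 4 were 7 of the 26 (26.9%), against 10.7% of all probe sets with 1 symbol. Cxcl14, which is made by resting epithelia and by some neurons, read 464, 384, 498 and 558, 2.22 to 2.81 times the array median. Cxcl12, the ligand of Cxcr4 that guides migrating neurons and progenitors, read 482, 408, 363 and 267 through its brightest probe set. Ccl22, a chemokine of dendritic cells and macrophages, read 479, 261, 415 and 426. All 12 of these values exceeded the median of their array.

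Many other chemokine ligands were dim. Ccl2, the main attractant of monocytes, read 22.0, 6.9, 14.2 and 48.7, and Ccl5, which attracts T cells, read 37.7, 8.1, 24.6 and 26.7. Both lay under the floor on every array, as did Ccl12, Ccl17, Ccl25, Cxcl9 and Cxcl13. Cxcl10, induced by interferons, read 12.1, 11.4, 73.8 and 61.7. Cxcl2, a neutrophil attractant, read 59.3, 52.9, 8.9 and 12.2, and the brighter of the Cxcl1 probe sets on the 4 hr array read 18.8, 13.8, 129 and 24.3. Ccl3 and Ccl4, released by activated microglia, ranged from 26.0 to 175 and from 24.7 to 91.9. These were all below the median on all 4 arrays, whereas Ccl6 (206, 168, 288 and 82.9) and Ccl9 (47.2, 38.2, 28.0 and 223) crossed it.

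The bases upstream of 4 chemokine genes, chosen after the values were seen, are given as examples and do not stand for the rest. Each sequence below is the 250 bases before the transcription start in RefSeq (build GRCm38.p6), written along the gene, with matches to searched motifs in capitals. The motifs were the NF-kB consensus (kappa B), the interferon-stimulated response element core GAAANNGAAA, both on either strand, and the TATA box TATAAA on the gene strand. The first pair belong to genes above the median on all 4 arrays and the second pair to genes below it on all 4.
Cxcl12 (chr6:117168285-117168534, plus strand): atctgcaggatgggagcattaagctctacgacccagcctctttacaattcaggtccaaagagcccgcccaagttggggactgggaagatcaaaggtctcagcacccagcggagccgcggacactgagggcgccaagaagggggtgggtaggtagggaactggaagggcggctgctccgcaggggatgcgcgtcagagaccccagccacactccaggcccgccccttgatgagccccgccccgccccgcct
Cxcl14 (chr13:56296552-56296801, minus strand): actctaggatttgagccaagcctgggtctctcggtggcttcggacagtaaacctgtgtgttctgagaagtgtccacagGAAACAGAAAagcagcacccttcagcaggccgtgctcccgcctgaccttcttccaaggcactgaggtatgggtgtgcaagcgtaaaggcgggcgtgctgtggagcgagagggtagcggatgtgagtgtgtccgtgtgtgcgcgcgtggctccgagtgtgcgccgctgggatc
Cxcl10 (chr5:92348890-92349139, minus strand): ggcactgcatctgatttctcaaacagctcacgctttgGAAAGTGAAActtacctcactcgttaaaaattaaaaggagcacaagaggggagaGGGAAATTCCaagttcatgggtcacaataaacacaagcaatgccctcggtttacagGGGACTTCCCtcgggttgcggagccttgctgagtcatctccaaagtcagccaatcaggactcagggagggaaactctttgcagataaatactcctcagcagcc
Cxcl2 (chr5:90903649-90903898, plus strand): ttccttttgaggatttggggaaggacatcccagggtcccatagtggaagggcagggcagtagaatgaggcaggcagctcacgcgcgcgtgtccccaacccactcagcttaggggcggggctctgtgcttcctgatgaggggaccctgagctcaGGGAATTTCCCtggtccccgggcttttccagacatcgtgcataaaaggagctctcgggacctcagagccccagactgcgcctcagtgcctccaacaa

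Cxcl12 held none of the 3 motifs and 14 CpG dinucleotides, at a GC content of 64.4%. Cxcl14 held 1 match to the response element core, its first base at position -172 from the start, and 16 CpGs. Cxcl10 held 2 kappa B matches and 1 response element core, with 5 CpGs and a GC content of 48.0%. In Cxcl2 the capitals mark a kappa B match on each strand, the 2 overlapping over all but their end bases, with 9 CpGs. Ccl22, also above the median but not shown, held none of the 3 motifs and 6 CpGs, at a GC content of 53.6%. Of the other chemokine ligands below the median with a listed promoter, Cxcl1 held a kappa B match. The windows of Ccl3, Ccl8, Ccl12, Ccl17, Ccl25, Cxcl9 and Cxcl13 held no kappa B match. Those of Ccl8, Ccl12, Cxcl9 and Cxcl13 and a window of Ccl25 held TATAAA. A match is a run of letters and not a measured binding site.

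Over the family, 76 of the 94 genes had a promoter in the table, with 90 windows. A kappa B match was present in 13.3% of the 90 windows, a response element core in 11.1% and TATAAA in 16.7%. The same shares were 4.72%, 2.72% and 5.90% over the 8409 windows of genes on the array, and 3.90%, 2.98% and 7.59% over all 32851 promoters in the table. The 65 windows of genes below the median on all 4 arrays had a median of 3 CpGs, and 8 of them held a kappa B match and 13 held TATAAA. The 7 windows of genes with a probe set above the median on all 4 had a median of 14 CpGs, the same as genes on the array, and held 0 kappa B and 0 TATAAA matches but 2 response element cores (28.6%), in Cxcl14 and Ifnab, against 6 of the 65 (9.23%). Il27ra, Il17ra and Il10rb, also above the median on all 4, had no window. So few windows describe only the genes they cover. Il18 with 1 CpG and Ifnab with 2, were as poor in CpG as the dim genes. Interferon alpha genes are near copies, so their windows are not independent. The 6 response element cores among the dim genes were in Ifna2, Ifna4, Ifna11, Ifna15, Cxcl10 and Il4.

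**Figure D3:**
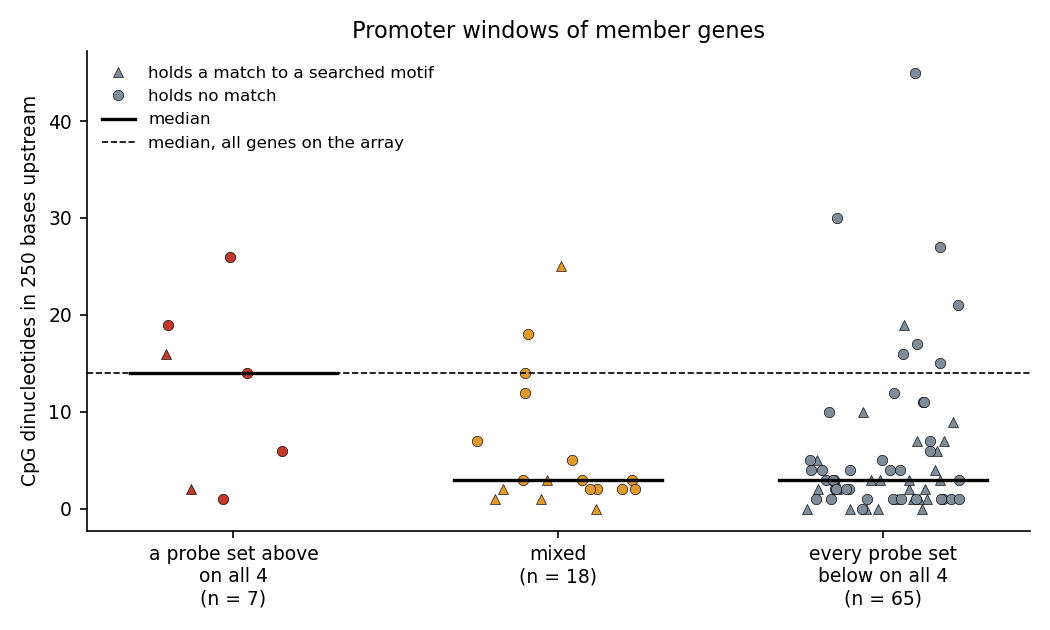
CpG dinucleotides in the 250 bases upstream of the transcription start, for each promoter window of the family's genes, by class of the gene. Triangles are windows that hold a match to a searched motif, and bars are the medians. The medians are 14 for the 7 windows of genes above the array median, and 3 for the 18 windows of the mixed class and 3 for the 65 windows of genes below; the dashed line marks 14, the median of all genes on the array.

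Chemokine receptors, the G protein coupled receptors of these ligands, had no probe set above the median on all 4 arrays. Of 13 probe sets for as many genes, 11 were below it on all 4 and 4 lay under the floor on all 4, those for Ccr2, Ccr7, Ccr8 and Cxcr5. Ccr2, the receptor for Ccl2 on monocytes, read 16.0, 36.0, 33.5 and 20.7. Cxcr4, whose ligand Cxcl12 was above the median, read 5.2, 10.3, 81.0 and 11.3. Cxcr3, the receptor for Cxcl9 and Cxcl10, came nearest the median at 163, 144, 175 and 228, 0.80 to 1.15 times that of its array. Ccr4, the receptor for Ccl22, read 40.3, 83.3 and 44.1 at 1, 2 and 4 hr and 258 at 6 hr, above the median on the last array only.

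Most interferon ligands were read through probe sets shared by family members. Of 11 interferon probe sets, 7 carry the f suffix that the array's maker gives to sets whose probes match several family members. Ifnab, an interferon alpha gene, was above the median on all 4 arrays through such a set, at 278, 200.4, 329 and 252. Ifna5, through another, read 496, 377, 424 and 88.4. Which transcripts these intensities come from was not tested. Ifng, the type II interferon of T and NK cells, read 77.7, 3.3, 13.4 and 11.8. Ifnb1, the first interferon made after viral sensing, read 129, 14.2, 217 and 108, above the median at 4 hr only.

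Of the interferon receptors, Ifnar1, the signalling chain for all type I interferons, was above the median on each array at 285, 437, 364 and 305. Its partner Ifnar2 was below the median on all 4 arrays by both probe sets, at 133, 150, 26.7 and 175 and at 102, 103, 159 and 120. Ifngr1 and Ifngr2, the chains of the interferon gamma receptor, read 203, 164, 22.0 and 116, and 240, 171, 42.4 and 298. Both were under the floor at 4 hr and above it on the other arrays.

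**Figure D4:**
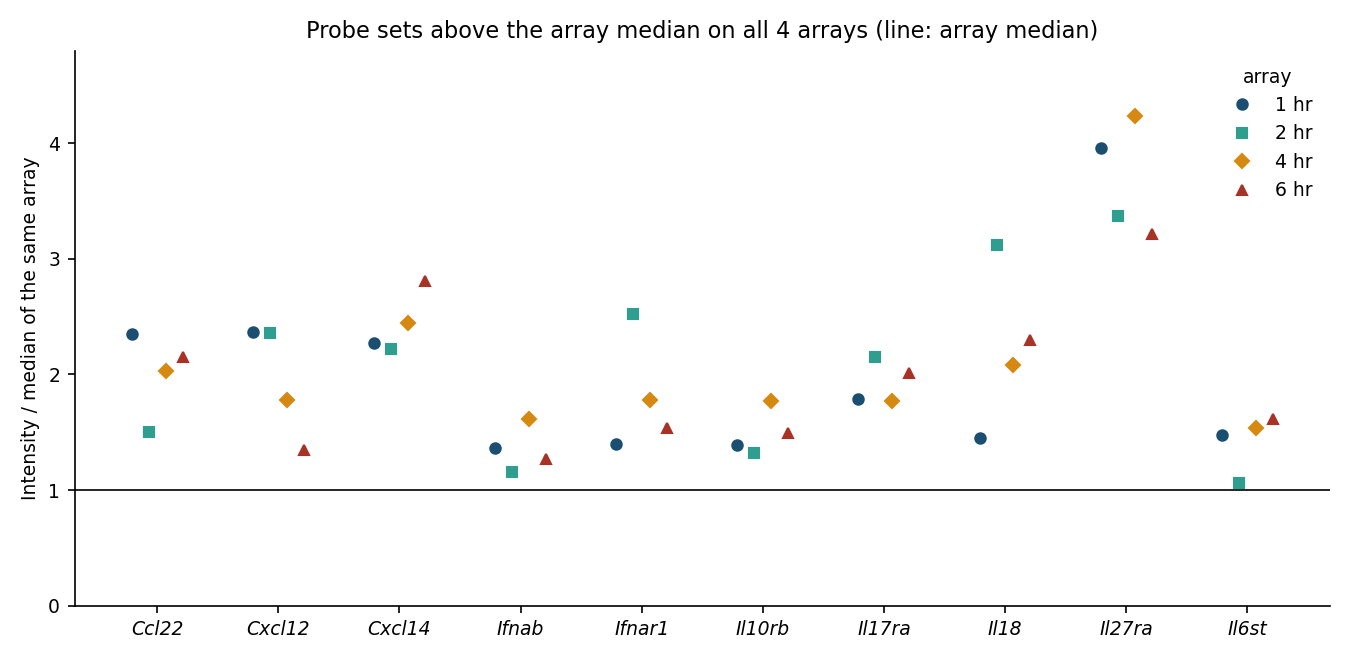
Intensity divided by the median of the same array (linear axis) for the 10 probe sets above the median on all 4 arrays, 1 marker per array. Il27ra lies highest, at 3.21 to 4.24, and Il6st at 2 hr lies closest to the line, at 1.06.

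The class itself bounds how far these 10 can fall, so their spread is a description. Cxcl12 and Il18 still ranged from 267 to 482 and from 296 to 540. The SD of their log2 ratio to the array median had a median of 0.24 over the 10, from 0.14 for Il17ra to 0.45 for Il18. All 4695 probe sets above the median on all 4 arrays had 0.26, and the 2277 of them with means in the range of the 10 had 0.29. The 18 that crossed the median had 0.97 and the 82 below it 0.86, against 0.63 and 0.82 over all probe sets of the same classes. No floor was applied here, so the spread of dim sets includes values under the floor, which have no order. The 10 were also not among the bright: 48.5% of all 4695 had a higher mean than Il27ra, at 723.

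For 12 genes with several probe sets, the sets could be compared, and for 5 they fell in different classes. The 3 Cxcl12 probe sets read 482, 408, 363 and 267, then 254, 153, 160 and 103, and then 112, 119, 117 and 163. The first pair were both highest at 1 hr and lowest at 6 hr, and the last was highest at 6 hr. The dimmer Il17ra set, at 168, 108, 166 and 170, was below the median on all 4 arrays while the brighter was above it. The Il6st sets were above on all 4 and mixed (246, 139, 216 and 138). Il1r2, the decoy receptor of interleukin 1, and Ccl1 each had a mixed and a below set. Both Il10 sets and all 5 of Il4, with 1 control set of the array in each, were below the median throughout.

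Across the hours no member changed in a straight line past the threshold. Only 29 of the 110 probe sets were bright enough to be tested with limma: all 10 above the median, 13 of the mixed and 6 below. None passed after Benjamini-Hochberg adjustment over 7453 probe sets (0% of the 7453 passed), and the smallest adjusted limma p among them was 0.883. On simulated data the same fit recovered only 4% of slopes of 0.4 log2 units per hr, so changes of this size would mostly be missed. At an unadjusted p under 0.05 there were 1 higher with time (3.45% of 29, against 2.87% of all) and 4 lower (13.8%, against 2.25%). The one higher was Il9, which gained 0.28 ± 0.08 (SE) on the log2 scale each hour, with an adjusted p of 0.883 by limma. Lower with time were Ifna5, with a slope of -0.44 ± 0.13 (SE), and the first pair of Cxcl12 probe sets with -0.16 ± 0.06 and -0.22 ± 0.08. The last was the brighter Ccl1 set, with -0.23 ± 0.09, while the other Ccl1 set was too dim to be tested. The slope of the remaining Cxcl12 set was 0.10 ± 0.07. Ifna9 and Cxcr3 had the next smallest p among the positive slopes, with 0.31 ± 0.16 and 0.11 ± 0.07. Several of these slopes rest on the 6 hr array: without it that of Ifna5 was -0.05, of Ccl1 -0.03, of Ifna9 0.05 and of Cxcr3 0.05, while that of Il9 was 0.43. With an intensity-dependent robust prior 1 of the 29 reached an unadjusted limma p under 0.05, against 330 of all 7453. Without the 4 hr array 7 of the 29 did, against 414 of all 7453.

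Some members had 1 array far below the others. A value at least 1 log2 unit (2-fold) below each of the other 3 arrays was found for 9 of the 29 tested probe sets (31.0%), against 6.37% of the 7453. For 1964 tested probe sets with a like geometric mean, 139 to 289, it was 13.7%. None of the 29 stood as far above the other arrays, against 1.36% of the 7453. That holds only above the filter on mean level, which removes probe sets bright on 1 array. Without it, 12 of 108 stood apart upward (11.1%, against 5.41% of 12422), among them Il12b at 1 hr and Ccr4 and Ccl9 at 6 hr, and 9 downward (8.33%, against 4.29%). At 4 hr Ifnar2 was at least 2.43-fold, Ifngr1 at least 2.12-fold and Ifngr2 at least 3.13-fold below the next array, each under the floor there. These are 3 of the 5 interferon receptor probe sets, and the second Ifnar2 set was not low at 4 hr. Ifna5 was 4.27-fold, Ccl1 2.10-fold and Ccl6 2.02-fold below at 6 hr. The other Ccl1 set was not low at 6 hr, at 109, 80.8, 109 and 108. Ccl6 is a chemokine of myeloid cells. At 2 hr Il1r2 (261, 44.6, 208 and 166) was at least 3.03-fold and Il16 2.23-fold below. The other Il1r2 set was under the floor at 2, 4 and 6 hr alike, at 103, 23.4, 21.2 and 20.9. Il2rb, a chain shared by the interleukin 2 and 15 receptors, read 46.1 at 1 hr and 204, 163 and 129 after that, at least 2.36-fold apart. With arrays set to a common median or quantile normalized, 8 of the 9 stood apart on the same array and Il16 did not, and quantile normalization added Il5 and Il6ra. On the 4 hr array, where the interferon receptor sets were low, Ttr, a choroid plexus marker, read 3217, against 140, 140 and 196 at 1, 2 and 6 hr. The summed choroid plexus and ependymal list read 1513, 1122, 4340 and 1379, with most of the 4 hr sum from that Ttr set. Of its other probe sets, only a dim Folr1 set was highest at 4 hr (49.1, 20.9, 56.6 and 43.8). Foxj1 read 662, 305, 464 and 553. The part of choroid plexus in the result was not tested. None of these differences can be tested with 1 array per time.

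**Figure D5:**
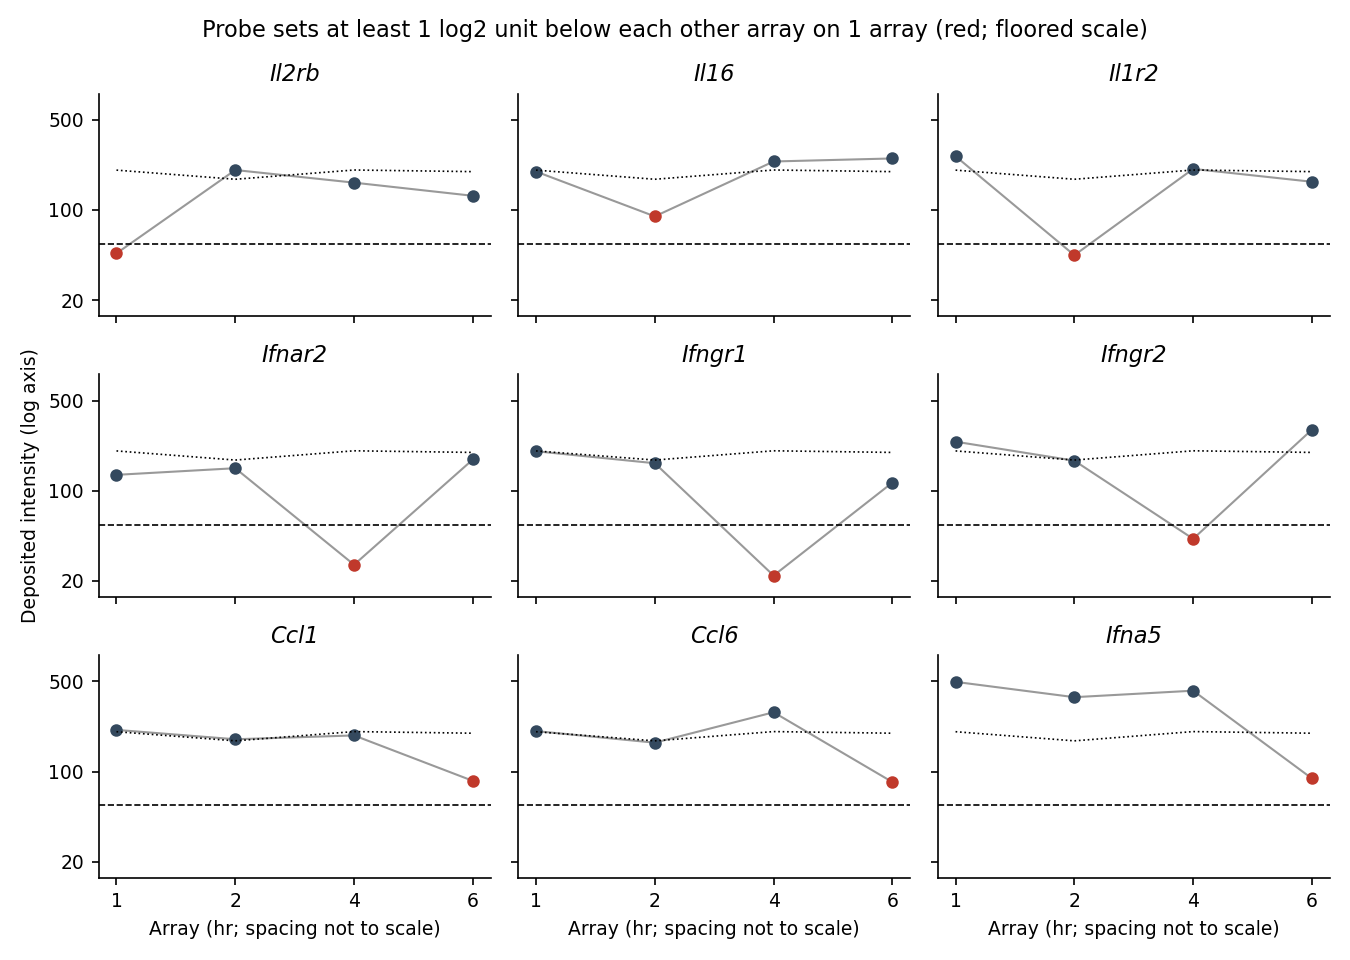
Deposited intensity (log axis) on the 4 arrays for the 9 probe sets with 1 array (red) at least 1 log2 unit below each other array, with the array median dotted and the floor of 54.6 dashed. The low array is 1 hr for Il2rb, 2 hr for Il16 and Il1r2, 4 hr for Ifnar2, Ifngr1 and Ifngr2, and 6 hr for Ccl1, Ccl6 and Ifna5.

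The 2 hr array read lowest for much of the family. It held the lowest value of 47 of the 110 probe sets (42.7%), against 33.0% of all probe sets with 1 symbol. For 2862 with means between 33.2 and 122, the middle range of the family, it was 37.5%. Values were compared as deposited, and those under the floor have no order. On the 2 hr array 60.9% of the family lay under the floor, and 46.4% to 48.2% on the others. Probe sets of that middle range shared the rise, with 53.9% at 2 hr against 40.1% to 43.7%, and all probe sets had 28.3% against 23.4% to 24.7%. The median of the family was 40.3 at 2 hr and 59.5 to 62.5 otherwise. The same array had the lowest median, the highest 3' to 5' ratio of the Gapdh control (7.56, against 4.84 to 6.25), though not of the actin control (3.20, against 2.99 to 3.44), and the lowest median of the bacterial and yeast controls (17.7, against 21.9 to 48.2). Their part in the result was not tested. After quantile normalization the 2 hr array held the lowest value of 31.8% of the family and 23.4% of all.

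Signalling genes downstream of these receptors, and other cytokines, were read from lists of their own. Of 45 probe sets for 32 kinases, STAT and SOCS proteins, adaptors and IRF factors, 14 (31.1%) were above the median on all 4 arrays and 18 below, where 43.3% of all probe sets were above. Above 4 times the median on all 4 were Jak1 and 1 set for Stat3. Jak1, a kinase bound to many cytokine receptors, read 1474, 2100, 1794 and 1911. Stat3, its target below gp130, read 933, 847, 953 and 963, and a second set read 454, 356, 386 and 424. None of the 24 tested in this list passed limma's test, and 2 were higher with time at an unadjusted p under 0.05, against 2.87% of all 7453. The list of other cytokines and receptors, such as colony stimulating factors and transforming growth factors, held 62 probe sets for 45 genes. Of these, 18 (29.0%, against 43.3% of all) were above the median on all 4 and 37 (59.7%, against 39.2% of all) below. Cx3cl1, the neuronal chemokine whose name lies outside the rule, read 14531, 17130, 17132 and 13796, while a second set read 217 to 339. Csf1r, the receptor that microglia need to survive, read 1488, 1833, 1139 and 1970, and a second set read 253 to 352. Csf3r, the receptor for granulocyte colony stimulating factor, read 831, 753, 1324 and 1078 through 1 set and 28.8 to 147 through its others. Of this list 0 of 31 tested passed limma's test and 1 was higher with time at an unadjusted p under 0.05, against 2.87% of all.

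Markers of the cells that make or receive these signals were read on the same arrays. Of all probe sets with 1 symbol, 43.3% were above the median on all 4 arrays. With so few probe sets, a list near that share does not show a cell type as present or absent. Markers of CA1 pyramidal neurons were above the median on all 4 arrays in 6 of 7 probe sets and of all neurons in 5 of 9. Those of astrocytes were above in 6 of 8, of oligodendrocytes in 9 of 11 and of dentate granule neurons in 2 of 6. Microglial and macrophage markers were above in 12 of 22 (54.5%), and 8 were below, those for Aif1, Itgam, Lyz2 and Fcer1g among them. Their summed intensity was 37630 to 43701, of which 1 Cst3 probe set gave 26929 to 31474; without it the sum was 10278 to 12227. T and NK cell markers were above in 1 of 19, for Cd4, which macrophages can also express. B and plasma cell markers were above in 1 of 11, granulocyte and mast cell markers in 1 of 18, red blood cell markers in 1 of 3, endothelial and mural markers in 4 of 13 and choroid plexus and ependymal markers in 1 of 7. The summed T and NK cell markers read 1796, 781, 1595 and 1345, lowest on the 2 hr array. In all 6 of the 12 cell type lists had their lowest sum there (also B and plasma cell, granulocyte and mast cell, red blood cell, dentate granule neuron and choroid plexus), as did the tissue-restricted list (9760), while 4 lists (CA1, all neurons, astrocyte, endothelial and mural) were highest there. Csf1r and Cx3cr1 are in the microglial list and in that of other cytokines, and Lct is in the reference and dentate lists.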

How the data were processed

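Each probe set has 1 deposited intensity on each array, on a linear scale; how probes were summarised is not stated in the labels used here. Judged from the values, the arrays had been scaled alike: with 2% trimmed from either end, every array had a mean of 500.3. No detection calls were used. Probe sets took their gene from the platform annotation; all 94 member genes matched RefSeq (GRCm38.p6) by Entrez identifier, and 5 probe sets that match the name rule with several symbols were left out. The scale was kept. For the line over hours, values under 54.6 were set to that floor, log2 was taken, control probe sets and those with a mean under the 40th percentile were left out, and limma 3.58.1 (R 4.3.3, lmFit and eBayes, 2 residual degrees of freedom, two-sided, Benjamini-Hochberg at 0.05) was fitted to all 7453 at once; it was tested on simulated data. With no replicate at any time, an SD with n = 4 is over the 4 arrays, and p-values measure only spread around a line, which may be technical. The number of arrays limits the precision. Members named are those above the median throughout, those standing apart, the 3 of smallest p in each direction, genes whose probe sets disagree and members under the floor, with other members, shown by role, chosen after their values were seen. Members, lists and motifs were chosen with earlier results of these data known; motifs and the 4 promoters shown were chosen after the values were seen. Alternatives covered the reference level, floor, filter, scaling, variance model, probe sets per gene and each array left out.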

Additional observations from a re-analysis of the deposited data

How the results depend on the processing

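No paired analysis was possible because each time has 1 array. Of 10 probe sets above the array median on all 4 arrays, 4 stayed above 1.5 times the median and 3 above the 60th percentile of the array. The count under the floor on all 4 arrays, 23, was 3 with the floor at the 10th percentile and 61 with it at the 40th percentile. The count above the reference list on all 4 arrays, 2, was 11 with the 75th percentile of that list, 1 with the 95th percentile and 14 with the highest bacterial or yeast control, a mark chosen after seeing the data; with each array left out it was 2 to 5, and without the 1 hr array it was 5 and without the 6 hr array 4. The count standing apart on 1 array, 9, was 3 with the floor at the 40th percentile, 21 with no filter on mean level, 1 with the filter at the 60th percentile and 3 at a distance of 1.5 log2 units. The counts above and below the median changed by less than 1.5 times under every other alternative run for them, each array left out among them, and quantile normalization and leaving out the 2 control probe sets, both added for these counts after seeing the data; limma called 0 members under each alternative. Without detection calls or replicates, a dim probe set cannot be told from an absent transcript.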
